A study of Homo sapiens with 12 samples.

Results

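FGA, FGB and FGG encode the Aα, Bβ and γ chains of fibrinogen, and these 3 genes are described here in RNA-seq libraries of HCCLM3 hepatoma cells and LX2 hepatic stellate cells kept in a tumor-on-a-chip. They were chosen by gene name, with their change in HCCLM3 and their traces in LX2 already known, so their values in these comparisons are given as a description without a test. All 3 were found in the table of HCCLM3, which held 60612 genes, and in that of LX2, which held 32507. The 4 groups were HCCLM3 with LX2, HCCLM3 alone, LX2 with HCCLM3 and LX2 alone, with 3 libraries each, and the labels call both lines wild type in every group. No label says whether the replicates are separate cultures, and the p-values then reflect only the spread among libraries, which may be technical. Nor do the labels say how the 2 lines were separated for RNA extraction.

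Fibrinogen is a soluble plasma glycoprotein secreted mainly by hepatocytes, built from paired Aα, Bβ and γ chains held together by disulfide bonds. Thrombin cleaves short peptides from the Aα and Bβ chains, and the fibrin monomers that result assemble into the mesh of a clot, which factor XIII crosslinks through the γ and Aα chains. The chain genes lie side by side on chromosome 4 and are known as acute phase genes, whose transcription in hepatocytes is raised by interleukin-6 through STAT3 and by glucocorticoids, on top of liver factors such as those of the C/EBP family.

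On the GRCh38 coordinates of the tables, FGB (ENSG00000171564) lay at chr4:154563011-154572807 on the plus strand, FGA (ENSG00000171560) at chr4:154583128-154590745 on the minus strand and FGG (ENSG00000171557) at chr4:154604134-154612849 on the minus strand. From the end of FGB to FGA were 10320 bases and from the end of FGA to FGG 13388 bases, and the whole cluster spanned 49839 bases. The 200 bases before each RefSeq transcription start are shown because the 3 promoters are the stretches through which these neighbouring genes are known to answer liver factors and interleukin-6. They are from RefSeq, build GRCh38.p14, at chr4:154590743-154590942 (minus strand) for FGA, chr4:154562811-154563010 (plus strand) for FGB and chr4:154612657-154612856 (minus strand) for FGG. Each is written 5′ to 3′ on the gene's own strand, with CTGGGA and its reverse complement in capitals. The letters CTGGGA are the core of the interleukin-6 response element known from the fibrinogen genes of the rat.
FGA promoter: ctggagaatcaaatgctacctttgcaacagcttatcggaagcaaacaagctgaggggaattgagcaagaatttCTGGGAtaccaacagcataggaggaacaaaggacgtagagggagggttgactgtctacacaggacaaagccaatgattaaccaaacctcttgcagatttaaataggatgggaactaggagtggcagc
FGB promoter: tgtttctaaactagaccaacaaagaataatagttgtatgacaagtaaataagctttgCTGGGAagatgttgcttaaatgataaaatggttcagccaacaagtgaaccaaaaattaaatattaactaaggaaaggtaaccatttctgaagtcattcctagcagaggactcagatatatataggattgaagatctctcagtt
FGG promoter: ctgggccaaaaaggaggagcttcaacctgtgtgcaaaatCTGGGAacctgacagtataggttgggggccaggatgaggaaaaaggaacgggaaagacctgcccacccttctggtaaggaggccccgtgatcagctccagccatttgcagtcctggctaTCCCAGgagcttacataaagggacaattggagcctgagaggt

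The 250 bases before each start were searched, and every match lay within the 200 bases shown. All 3 promoters held CTGGGA. Counting the base before the start as position -1, it stood at -127 to -122 in FGA, at -143 to -138 in FGB, and in FGG at -161 to -156 and, on the other strand, at -42 to -37. A C/EBP-like motif, TTGCNNAA, was found in FGA at -141 to -134 and in FGB at -132 to -125. It was not found in the FGG window, and none of these matches overlapped another. Among 27305 RefSeq promoters searched on both strands over 250 bases in the same way, CTGGGA was in 28.8% and TTGCNNAA in 9.13%. The RefSeq start of FGG lies 193 bases inside the gene span of the tables, against 3 bases for FGA and 0 for FGB. A match is a run of letters and not a measured binding site.

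In HCCLM3 all 3 chain genes were higher in co-culture with LX2 than alone, FGG and FGB far more than FGA. Levels are FPKM as deposited, that is, fragments per kilobase of transcript and per unit of library size. Log2 fold changes are co-culture over alone, from edgeR on the deposited counts with TMM scaling.

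FGA, whose product carries the fibrinopeptide A that thrombin removes, stood at 20.1, 20.9 and 19.4 FPKM in HCCLM3 with LX2, against 4.86, 4.81 and 4.53 FPKM in HCCLM3 alone. The groups lay well apart, with the lowest co-cultured library 3.998 times the highest library alone, and the libraries of a group close together. The means were 20.2 ± 0.751 FPKM in HCCLM3 with LX2 and 4.73 ± 0.177 FPKM in HCCLM3 alone (SD, n = 3 each), and the log2 fold change was 1.92 (SE 0.0800), a 3.79-fold difference that ranked 663 from the top among 18045 genes tested.

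FGB, the Bβ chain gene, stood at 33.9, 33.7 and 32.7 FPKM in HCCLM3 with LX2, against 2.18, 2.16 and 2.14 FPKM in HCCLM3 alone. It had the tightest replicates of the 3 genes in both groups, and the lowest co-cultured library was 15.04 times the highest library alone. The means were 33.4 ± 0.647 FPKM in HCCLM3 with LX2 and 2.16 ± 0.0196 FPKM in HCCLM3 alone (SD, n = 3 each), with a log2 fold change of 3.79 (SE 0.0738), 13.8-fold, rank 141. By mean FPKM, FGB was gene 1243 in HCCLM3 with LX2 and gene 8601 in HCCLM3 alone.

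FGG, whose γ chain carries crosslinking and integrin-binding sites of fibrin, stood at 13.2, 11.9 and 13.3 FPKM in HCCLM3 with LX2, against 0.388, 0.466 and 0.855 FPKM in HCCLM3 alone. Here too no library of one group came near the other, with the lowest co-cultured library 13.97 times the highest library alone, but the libraries alone were uneven and replicate 3 was highest. The means were 12.8 ± 0.769 FPKM in HCCLM3 with LX2 and 0.569 ± 0.250 FPKM in HCCLM3 alone (SD, n = 3 each), with a log2 fold change of 4.31 (SE 0.296), 19.8-fold, rank 114. The log2 fold change was 4.68 without HCCLM3 alone replicate 3, and it was 4.10 to 4.68 over all fits that left out 1 library.

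**Figure D1:**
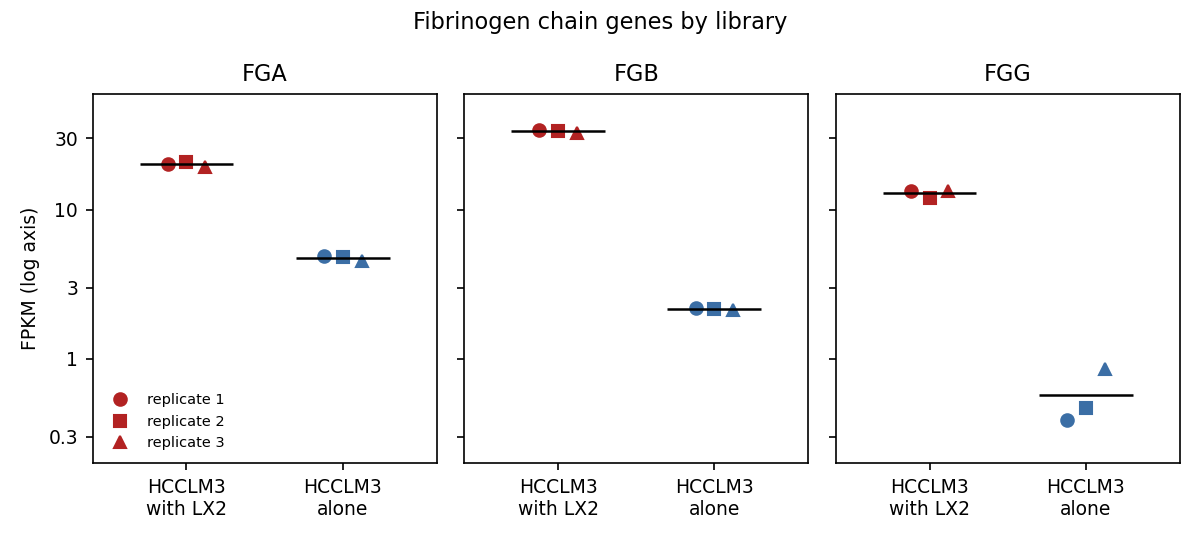
FPKM (log axis) of FGA, FGB and FGG in the 3 libraries of HCCLM3 with LX2 (red, left) and the 3 of HCCLM3 alone (blue, right). Symbols stand for replicates and lines for group means, which were 20.2 and 4.73 FPKM for FGA, 33.4 and 2.16 FPKM for FGB, and 12.8 and 0.569 FPKM for FGG.

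The depth behind these values was ample in co-culture and modest for FGG alone. FGG had 3753, 3509 and 3820 counts in HCCLM3 with LX2, against 133, 157 and 252 counts in HCCLM3 alone, from libraries of 65675929 to 68178411 counts with LX2 and 68088914 to 77712308 counts alone. FGB had 11682, 11998 and 11394 counts in HCCLM3 with LX2, against 884, 855 and 759 in HCCLM3 alone. FGA had 6211, 6686 and 6065 counts in HCCLM3 with LX2, against 1770, 1701 and 1439 in HCCLM3 alone. Every co-cultured library thus exceeded every library alone for each of the 3 genes, a pattern that 22.1% of all 18045 genes tested in HCCLM3 also had. Scaling mattered little beside the size of these differences: the median log2 fold change of all genes was 0.03 with TMM factors and 0.21 with library totals, which gave 2.10 for FGA, 3.96 for FGB and 4.48 for FGG. These are bulk samples, in which a larger share of cells that make a transcript and more of it per cell cannot be told apart.

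Co-culture also went with another balance among the chains. FGB gave the largest part of the summed FPKM of the 3 genes in HCCLM3 with LX2, and FGA in HCCLM3 alone. FGA made up 30.4% ± 0.965 of the sum in HCCLM3 with LX2 and 63.5% ± 2.82 in HCCLM3 alone, FGB 50.3% ± 0.318 with LX2 and 28.9% ± 0.465 alone, and FGG 19.3% ± 1.23 with LX2 and 7.62% ± 3.28 alone (SD, n = 3 each). The sum itself was 65.5 to 67.3 FPKM in HCCLM3 with LX2 and 7.43 to 7.52 FPKM in HCCLM3 alone.

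Taken as ratios of FPKM, FGB over FGA was 1.68, 1.61 and 1.68 in HCCLM3 with LX2, against 0.447, 0.449 and 0.471 in HCCLM3 alone. FGG over FGA was 0.657, 0.570 and 0.684 in HCCLM3 with LX2, against 0.0798, 0.0968 and 0.189 in HCCLM3 alone. Both ratios to FGA were higher in every co-cultured library than in any library alone. The FGG over FGB ratio was 0.390, 0.355 and 0.407 in HCCLM3 with LX2, against 0.178, 0.215 and 0.400 in HCCLM3 alone. These last groups overlapped, through replicate 3 of HCCLM3 alone, so the balance of FGG and FGB could not be separated between the conditions. Levels set between genes depend on the length used. With the joined exons of GENCODE release 29 the FGB over FGA ratio was 2.70 in HCCLM3 with LX2 and 0.745 in HCCLM3 alone, and the order of the chains in each group was as on the deposited scale.

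**Figure D2:**
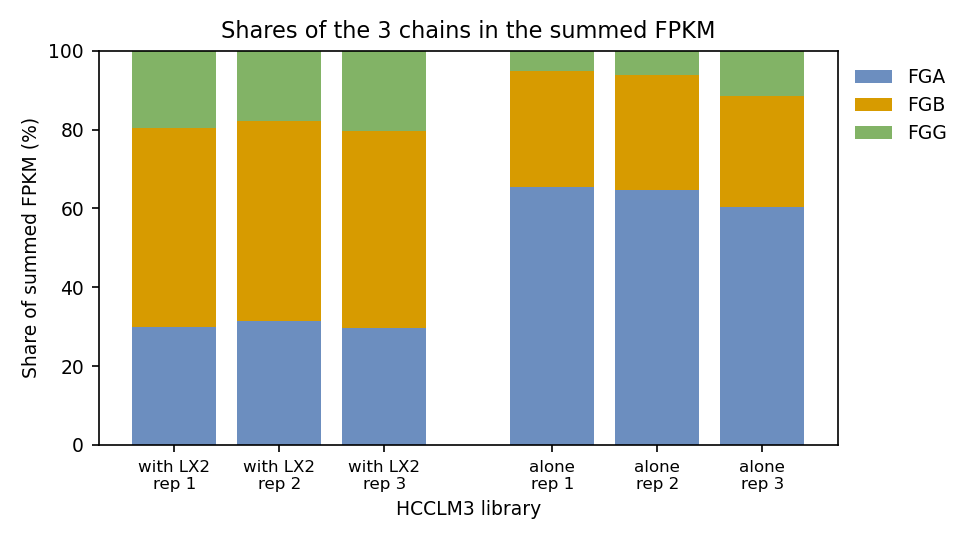
Share (percent, from 0 to 100) of FGA, FGB and FGG in their summed FPKM in each library of HCCLM3 with LX2 (left 3 bars) and HCCLM3 alone (right 3 bars). FGA averaged 30.4% with LX2 and 63.5% alone, and FGG reached its highest share alone, 11.4%, in replicate 3.

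The uneven FGG values alone were set beside other genes of the same libraries. In HCCLM3 alone replicate 3 stood out as well for the complement gene C3, with 529, 760 and 662 counts in HCCLM3 with LX2, against 26, 26 and 245 in HCCLM3 alone. The collagen gene COL1A1 had 21, 356 and 1448 counts in HCCLM3 with LX2, against 16, 20 and 541 in HCCLM3 alone. These 2 genes were picked after their values were seen. In LX2 alone C3 had 11663, 11088 and 11885 counts and COL1A1 1938, 1812 and 1875, whereas FGG had 4, 0 and 4. Whether the height of FGG in that library is tied to these genes was not tested.

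Few genes around the cluster had enough counts to be compared. Of 17 other genes within 500000 bases of it in the HCCLM3 table, 13 had no count in any library and 2 passed the filter on low counts. PLRG1, a spliceosome gene next to FGB, had 8773, 8380 and 8887 counts in HCCLM3 with LX2, against 10932, 10342 and 9366 in HCCLM3 alone (log2 fold change -0.26, SE 0.0732; edgeR adjusted p = 0.0457). LRAT, which makes retinyl esters and lies next to FGG, had 230, 118 and 185 counts in HCCLM3 with LX2, against 47, 72 and 57 in HCCLM3 alone (log2 fold change 1.58, SE 0.339; edgeR adjusted p = 0.0196). PLRG1 was thus slightly lower and LRAT higher, in both cases without overlap of the libraries, beside 21.7% of all tested genes called in either direction. Whichever library was left out, only 0 or 1 of these calls held. RBM46 had 0, 0 and 8 counts in HCCLM3 with LX2 and none in HCCLM3 alone. A pseudogene inside FGG on the same strand (ENSG00000287770) had 0, 8 and 0 counts in HCCLM3 with LX2 and none alone.

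In LX2 the chain genes were at the edge of detection. FGA had 8, 12 and 12 counts in LX2 with HCCLM3, against 0, 0 and 0 in LX2 alone. FGB had 24, 8 and 8 counts in LX2 with HCCLM3, against 0, 0 and 0 in LX2 alone, and FGG had 20, 16 and 12 against 4, 0 and 4. Every co-cultured LX2 library held a few counts of each gene, and the libraries alone held none of FGA or FGB. All of these counts are multiples of 4. Among all counts of 1 to 12, multiples of 4 made up 36.0% in HCCLM3 and 37.1% in LX2, against 25% if counts were even, so 1 fragment may have given about 4 counts.

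Summed over the 3 genes and libraries, 120 counts were found in LX2 with HCCLM3 and 8 in LX2 alone. On the CPM scale (counts scaled to library totals) this is 0.591 (exact 95% Poisson interval 0.399 to 0.844) in LX2 with HCCLM3 and 0.0416 (0.00503 to 0.150) in LX2 alone, with intervals on counts divided by 4 that cover counting error only. For FGA and FGB in LX2 alone, 0 counts allow a level of up to 0.0624 CPM over the group (12 counts). In HCCLM3 with LX2 the 3 genes summed to 325 CPM, so the level in LX2 with HCCLM3 was 0.182% of it. The share was 0.167% for FGA, 0.113% for FGB and 0.428% for FGG.

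For scale, 49 genes were taken with at least 20 FPKM in HCCLM3 in both conditions and under 0.1 FPKM in LX2 alone. Their CPM in LX2 with HCCLM3 less that in LX2 alone had a median of 0.549% of their CPM in HCCLM3 with LX2. The quartiles were 0.313% and 0.831%, and 47 of the 49 were higher in LX2 with HCCLM3 than in LX2 alone. FGA and FGB, with 0 counts in LX2 alone, lay below these quartiles. FGG lay between them as a level with nothing subtracted, and its level in LX2 alone was 0.0752% on the same scale. In the other direction, 30 genes of LX2 were chosen the same way. Their gain in HCCLM3 with LX2 over HCCLM3 alone had a median of 0.154% of their CPM in LX2 with HCCLM3. Which cells gave the traces in LX2 was not tested. PLRG1 was the 1 neighbour with enough counts for a test in LX2, where it differed by 0.09 on the log2 scale (edgeR adjusted p = 0.118).

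Among the other acute phase proteins, which the liver secretes during inflammation, 9 of 14 tested rose and none fell in HCCLM3 with LX2, from a list of 25. Their median log2 fold change was 2.55, against 0.03 over all genes tested, of which 10.1% rose and 11.6% fell. The risers were SAA1, ORM1, CP, CFB, C4A, C4B, FGL1, LCN2 and AGT. In HCCLM3 alone SAA1 had 0, 0 and 0 counts, C4A 2, 0 and 0, and C4B 5, 0 and 16. These genes passed the filter on low counts only through the co-cultured libraries and could only be called higher. Their calls are thus no support beside the background, and the median includes them. This list, like those that follow, was chosen with earlier results of these data known. Leaving out 1 library gave 6 to 10 rising members, with 6 both without replicate 1 and without replicate 3 of HCCLM3 with LX2.

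LCN2, an iron-scavenging lipocalin, had 5535, 6156 and 6009 counts in HCCLM3 with LX2, against 399, 300 and 411 in HCCLM3 alone (log2 fold change 3.96, SE 0.169; edgeR adjusted p = 0.000157). FGL1, a liver-secreted protein with a fibrinogen-like domain, stood at 34.2 ± 1.51 FPKM in HCCLM3 with LX2 and 11.97 ± 0.704 FPKM in HCCLM3 alone (SD, n = 3 each; log2 fold change 1.35, edgeR adjusted p = 0.000515). CFB, factor B of the alternative complement pathway, had 621, 661 and 609 counts in HCCLM3 with LX2, against 38, 38 and 61 in HCCLM3 alone (log2 fold change 3.74, edgeR adjusted p = 0.000670). Ceruloplasmin (CP), a copper-carrying plasma protein singled out after its values were seen, had 14335, 20538 and 15241 counts in HCCLM3 with LX2, against 2461, 3505 and 2712 in HCCLM3 alone (log2 fold change 2.50, edgeR adjusted p = 0.000581). All of these were far outside the spread of their replicates. Other acute phase genes were not detected or near 0. CRP, SAA4, LBP and APCS had no count in any HCCLM3 library, and haptoglobin (HP) had 0, 8 and 8 counts in HCCLM3 with LX2 and none in HCCLM3 alone. SAA1 had 23, 19 and 11 counts in HCCLM3 with LX2, against 0, 0 and 0 in HCCLM3 alone, and SERPINA1 was not called (edgeR adjusted p = 0.754). C4A and C4B, like SAA1 and SAA2 or ORM1 and ORM2, are near-identical copies whose reads the counting may split, so their separate values are uncertain.

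**Figure D3:**
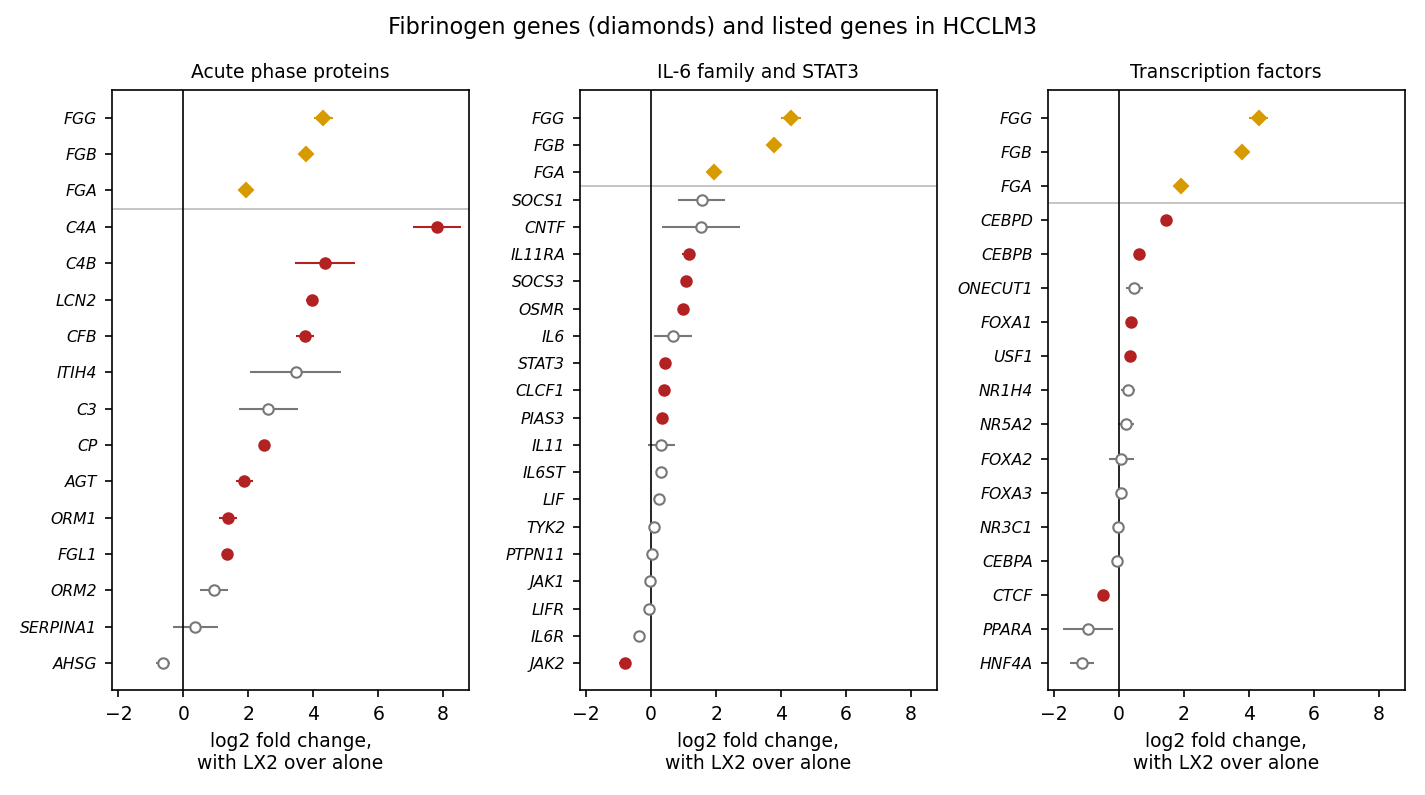
Log2 fold change (HCCLM3 with LX2 over HCCLM3 alone, with SE) of the fibrinogen genes (diamonds) above tested genes of 3 lists, acute phase proteins, the IL-6 family with STAT3, and transcription factors known for fibrinogen genes. Red points passed an edgeR adjusted p of 0.05 and open points did not. C4A, at the far right, had 2, 0 and 0 counts alone, so its point depends on the prior count. SAA1, with no count alone, is not drawn.

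Of 18 tested genes of the clotting cascade, from a list of 28, F5 and PROS1 rose and TFPI fell, beside 10.1% up and 11.6% down among all genes tested, so the counts were near that background. The median log2 fold change was 0.36. F5, the cofactor of the prothrombinase complex, had 4911, 5880 and 4904 counts in HCCLM3 with LX2, against 2609, 2921 and 2432 in HCCLM3 alone (log2 fold change 0.95, SE 0.0913; edgeR adjusted p = 0.00133). The calls of PROS1, which encodes the anticoagulant protein S, and TFPI, the tissue factor pathway inhibitor, held in 1 and 0 of 6 fits that left out a library. Prothrombin (F2), whose active form thrombin cleaves fibrinogen, stood at 3.06 ± 0.311 FPKM in HCCLM3 with LX2 and 2.40 ± 0.310 FPKM in HCCLM3 alone (SD, n = 3 each) and was not called (log2 fold change 0.18, edgeR adjusted p = 0.476). F9, F11, F13B, KLKB1, SERPINC1 and SERPINA10 had no count in any HCCLM3 library.

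Of the genes that dissolve fibrin or hold that back, 9 of 13 were tested. Of these, 2 rose, PLAT and SERPINF2, and 3 fell, PLAU and SERPINE2 among them, beside 10.1% and 11.6% of all genes tested. PLAU, the urokinase plasminogen activator, stood at 9.02 ± 0.665 FPKM in HCCLM3 with LX2 and 15.2 ± 1.28 FPKM in HCCLM3 alone (SD, n = 3 each; log2 fold change -0.92, edgeR adjusted p = 0.00212). Tissue plasminogen activator (PLAT), with a log2 fold change of 0.91, and the plasmin inhibitor SERPINF2, with 0.74, kept their calls in 1 and 0 of 6 fits that left out a library. Plasminogen (PLG) had no count in HCCLM3.

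Receptors that bind fibrinogen or fibrin also went both ways, with ITGAV, ITGAM and ICAM1 higher and ITGB5 lower among 9 of 13 tested, beside 10.1% up and 11.6% down among all genes. With 1 library left out 1 to 3 of them rose, fewest without replicate 3 of HCCLM3 with LX2. ICAM1, an adhesion molecule that fibrinogen bridges to leukocyte integrins, stood at 41.8 ± 1.85 FPKM in HCCLM3 with LX2 and 21.7 ± 0.686 FPKM in HCCLM3 alone (SD, n = 3 each; log2 fold change 0.78, edgeR adjusted p = 0.00102). Genes with a fibrinogen-like domain included 4 that rose, FGL1, ANGPTL2, ANGPTL4 and FCN1, and 2 that fell, FIBCD1 and TNXB, among 10 of 18 tested, beside the same background. ANGPTL4, an inhibitor of lipoprotein lipase, had 1629, 2061 and 1586 counts in HCCLM3 with LX2, against 199, 152 and 116 in HCCLM3 alone (log2 fold change 3.47, SE 0.202; edgeR adjusted p = 0.000399). TNXB, a tenascin of the extracellular matrix, fell by 1.89 on the log2 scale (edgeR adjusted p = 0.00102). FCN1, a lectin of myeloid cells, had 56, 52 and 44 counts in HCCLM3 with LX2 and none in HCCLM3 alone. It passed the filter on low counts only through the co-cultured libraries and could only be called higher. Its call among the 4 is thus no support beside the background.

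In the pathway through which interleukin-6 is known to act on fibrinogen genes, 6 of 18 tested members rose in HCCLM3 with LX2 and JAK2 fell, from a list of 20, beside 10.1% up and 11.6% down among all genes tested. The median log2 fold change was 0.32, and leaving out 1 library gave 3 to 5 rises, fewest without replicate 3 of HCCLM3 alone. SOCS3, a feedback inhibitor that STAT3 induces, stood at 21.6 ± 0.348 FPKM in HCCLM3 with LX2 and 9.06 ± 0.244 FPKM in HCCLM3 alone (SD, n = 3 each; log2 fold change 1.08, edgeR adjusted p = 0.000547). The oncostatin M receptor gene OSMR stood at 11.2 ± 1.46 FPKM with LX2 and 5.04 ± 0.568 FPKM alone (log2 fold change 0.98, edgeR adjusted p = 0.00285), and IL11RA rose by 1.15 on the log2 scale (edgeR adjusted p = 0.0121). STAT3 itself rose less, to 9.93 ± 0.619 FPKM in HCCLM3 with LX2, against 6.64 ± 0.515 FPKM in HCCLM3 alone (log2 fold change 0.41, edgeR adjusted p = 0.0142), a call that held in 5 of 6 fits that left out a library.

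The IL-6 receptor chains showed no call in HCCLM3. The log2 difference was -0.36 for IL6R, the receptor that binds the cytokine (edgeR adjusted p = 0.0501), and 0.30 for IL6ST, the signalling chain shared by the family (edgeR adjusted p = 0.182). IL6 had 55, 32 and 83 counts in HCCLM3 with LX2, against 17, 30 and 56 in HCCLM3 alone (edgeR adjusted p = 0.474). LX2 held far more of it, with 3664, 2922 and 3358 counts in LX2 with HCCLM3, against 2816, 2467 and 2197 in LX2 alone (log2 fold change 0.31, edgeR adjusted p = 0.130). In LX2 with HCCLM3, 7 of 18 tested genes of this list rose and 5 fell, beside 15.4% and 16.6% of the 19671 genes tested in LX2. SOCS3 rose there too (log2 fold change 0.91, edgeR adjusted p = 7.71e-05), and STAT3 fell by 0.45 on the log2 scale (edgeR adjusted p = 0.000438).

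Among 15 tested transcription factors known for fibrinogen genes, FOXA1, CEBPB, CEBPD and USF1 rose and CTCF fell in HCCLM3 with LX2, beside 10.1% up and 11.6% down among all genes tested, and the median log2 fold change was 0.08. CEBPD, an acute phase member of the C/EBP family, stood at 32.9 ± 5.68 FPKM in HCCLM3 with LX2 and 10.6 ± 0.518 FPKM in HCCLM3 alone (SD, n = 3 each; log2 fold change 1.46, edgeR adjusted p = 0.00122). CEBPB, which IL-6 signalling activates in liver, stood at 82.9 ± 1.18 FPKM with LX2 and 48.4 ± 3.84 FPKM alone (log2 fold change 0.61, edgeR adjusted p = 0.00453). Several constitutive liver factors were not called. On the log2 scale CEBPA differed by -0.07 (edgeR adjusted p = 0.647), FOXA2 by 0.08 (edgeR adjusted p = 0.904) and HNF4A by -1.14 (edgeR adjusted p = 0.0772). FOXA2 had 4863, 5122 and 5170 counts in HCCLM3 with LX2, against an uneven 6519, 2129 and 5337 in HCCLM3 alone. The values of FOXA2 (SE 0.371) and HNF4A (SE 0.383) are thus imprecise. NR3C1, the glucocorticoid receptor gene, differed by -0.02 on the log2 scale (edgeR adjusted p = 0.915). The calls of FOXA1, USF1 and CTCF held in 1, 0 and 2 of 6 fits that left out a library, and 2 factors rose in each of these fits except that without replicate 2 of HCCLM3 alone, where 3 did, counts near the background.

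Over the 6 HCCLM3 libraries, the chain genes were compared with 11586 genes by the root mean square difference of centred log2 CPM, where 0 would be the same profile. FGB was closest to C2 (0.127), TNFSF10 (0.143), BPIFB1 (0.148), LCN2 (0.209) and CFI (0.222). FGG was closest to CFB (0.333), LCN2 (0.334), DEFA1 (0.355), CFI (0.373) and PRAC1 (0.428), and FGB came next as its gene 6. FGA was closest to GRIN2D (0.0517), NRARP (0.0912), DDIT4 (0.132), UBA7 (0.138) and SLC44A2 (0.148). FGB and FGG thus lay near each other, while FGA had other neighbours in profile, with FGB its gene 3963. In reverse, FGA was gene 74 for FGB and gene 88 for FGG. The Pearson correlation was 0.999 for FGA with FGB, 0.981 for FGA with FGG and 0.988 for FGB with FGG. The ranking mostly reflects the size of the step between the groups, and all of these values are a description of 6 libraries. C2, CFB and CFI are complement genes, and C2 and CFB adjoin each other on the chromosome, so their counting may share reads. C2 had 1539, 1568 and 1459 counts in HCCLM3 with LX2, against 135, 129 and 118 in HCCLM3 alone. CFI, the protease that inactivates C3b, had 2824, 2579 and 2236 counts in HCCLM3 with LX2, against 174, 123 and 156 in HCCLM3 alone. DEFA1 and PRAC1 had no count in HCCLM3 alone, so they passed the filter only through the co-cultured libraries. Their places near FGG depend on the prior count and are not read as likeness. The edgeR log2 fold changes were 8.55 for DEFA1 and 8.40 for PRAC1, against 4.31 for FGG. DEFA1 also has near-identical copies.

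Markers of other cells were read beside these results. Hepatocyte markers, 14 of 25 tested, included 3 that rose, ALB, TF and VTN, and none that fell, beside 10.1% up and 11.6% down among all genes tested, with a median log2 fold change of 0.06. Albumin (ALB) stood at 3.34 ± 0.237 FPKM in HCCLM3 with LX2 and 0.531 ± 0.134 FPKM in HCCLM3 alone (SD, n = 3 each; log2 fold change 2.46, edgeR adjusted p = 0.00112), while the apolipoprotein gene APOA1 was not called (edgeR adjusted p = 0.822). Only 7 of the 25 reached 1 FPKM in HCCLM3 with LX2 and 4 in HCCLM3 alone, and APOC3, ASGR2 and G6PC had no count, so the labelled hepatoma line carried few hepatocyte transcripts. Summed, these markers had 9590, 9813 and 9066 counts in HCCLM3 with LX2, against 9084, 8832 and 7597 in HCCLM3 alone. Scaled to library totals the sums did not overlap, at 136 to 146 CPM with LX2 and 112 to 117 CPM alone.

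Blood cell markers differed far more in their sums. Of the red cell list of 15 and the granulocyte list of 12, 11 and 10 genes passed the filter on low counts. Since the lists were at or near 0 alone, these genes passed only through the co-cultured libraries and had to differ, so their calls are not counted here. The red cell markers summed to 9214, 6637 and 7797 counts in HCCLM3 with LX2, against 0, 6 and 4 in HCCLM3 alone, and the granulocyte markers to 1135, 934 and 798 with LX2, against 0, 0 and 4 alone. Platelets carry fibrinogen, and of their 12 markers 3 were tested and 0 were called by edgeR, with 2 at an unadjusted p under 0.05 and 1 called by DESeq2. Their median log2 fold change was 1.32. The list summed to 186, 189 and 186 counts (2.77 to 2.83 CPM) in HCCLM3 with LX2 and 72, 111 and 97 counts (0.926 to 1.46 CPM) in HCCLM3 alone, without overlap. Of the 12, GP9, TREML1 and CLEC1B had no count in any HCCLM3 library. PPBP had 4, 0 and 0 counts in HCCLM3 with LX2 and none in HCCLM3 alone. The part of the blood cell markers in the fibrinogen values was not tested. Stellate and fibroblast markers overlapped between the groups, at 6008, 8337 and 10991 counts with LX2 and 7539, 8678 and 9707 alone, with COL3A1 and LRAT called among 13 tested of 17 and DES at 0. COL3A1 had 300, 848 and 1011 counts in HCCLM3 with LX2, against 58, 39 and 112 in HCCLM3 alone. LX2 held fewer than HCCLM3 with LX2, at 86, 60 and 85 counts with HCCLM3 and 202, 282 and 214 alone. LRAT is not among the genes listed for LX2. The source of these 2 transcripts was not tested.

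**Figure D4:**
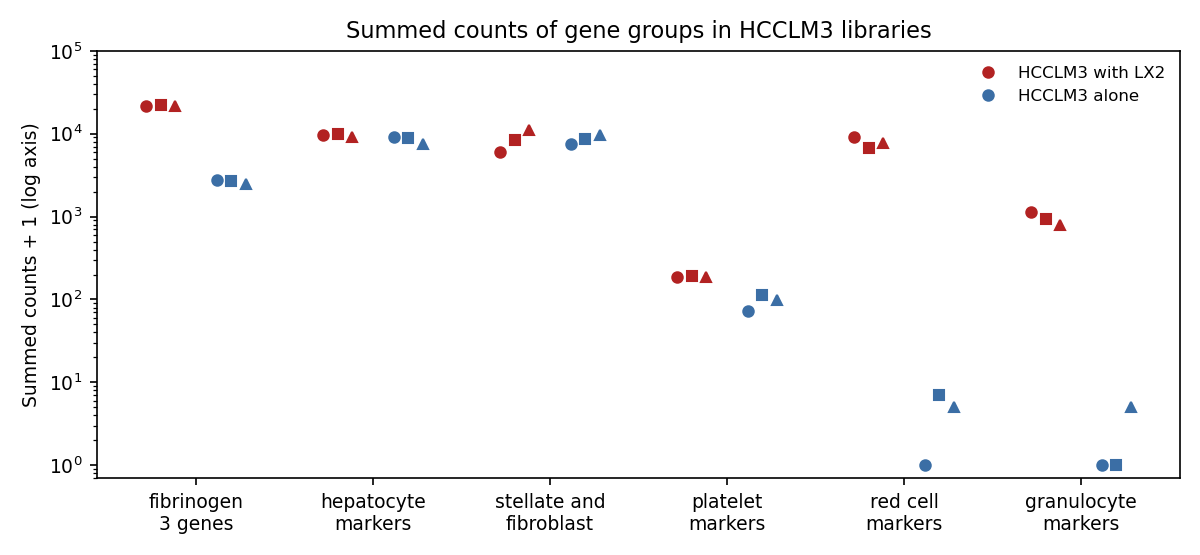
Summed counts plus 1 (log axis) of the fibrinogen genes and of 5 marker lists in the libraries of HCCLM3 with LX2 (red) and HCCLM3 alone (blue), with circles, squares and triangles for replicates 1, 2 and 3. Red cell and granulocyte markers lie between 798 and 9214 counts with LX2 and at 0 to 6 alone, while stellate sums overlap between the groups, as do hepatocyte sums on this scale of raw counts but not as CPM.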

How the data were processed

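RNA-seq of HCCLM3 and LX2, each alone or with the other line, gave 12 libraries in 4 groups of 3. Each line has 1 deposited table that holds, per the file headers, both a raw count and an FPKM value per gene and library. The submitters' processing notes name Bowtie 0.12.2, HISAT2 2.0 and StringTie 1.3.0 with no role given, and mm8, a mouse build, although the gene identifiers are human. The sources used here do not state whether counting used strand. Poly(A) RNA was sequenced paired-end, per the labels' protocols. The extraction protocol also mentions adipose RNA, although the samples are cell lines, and different Illumina sequencers are named.

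Deposited counts were tested within each line with the edgeR 4.0.16 quasi-likelihood test in R 4.3.3, after filterByExpr (minimum count 10, minimum total 15) and TMM scaling. Calls are at a two-sided Benjamini-Hochberg adjusted p under 0.05 over all genes tested. All adjusted p-values are from this test. FPKM means and ratios were taken from the deposited values. Exact Poisson intervals were computed with SciPy 1.17.1. Alternatives were RLE factors, library totals, no filter, DESeq2 1.42.0, limma 3.58.1 on log2(FPKM + 1), a replicate block and each library left out. Counts divided by 4 and GENCODE lengths were added after the data were seen. The procedure was tested on simulated counts with known fold changes. In HCCLM3 it recovered 4.48% of 1.5-fold, 35.8% of 2-fold and 89.4% of 4-fold changes, with 7 false calls among 93. In LX2 it recovered 22.4%, 73.1% and 87.9%, with 6 false calls among 128. A gene that was not called may therefore still differ by a small factor. Values of some listed genes are not reported here.

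The 3 genes and 12 gene lists were chosen with earlier results of these data known. Genes named with values are the 3, their neighbours within 500000 bases, up to 4 called members of each list with the largest change in HCCLM3, 24 genes named whatever their values and the 5 genes most like each of the 3 among genes of at least 1 FPKM in 1 group (log2 CPM, prior count 2).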

Additional observations from a re-analysis of the deposited data

Results flagged for a closer look

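On the scale of log2 CPM with TMM factors, in 16 of 45 named genes tested in both lines every library of HCCLM3 with LX2 lay on one side of every library of HCCLM3 alone and every library of LX2 with HCCLM3 on the opposite side of every library of LX2 alone. The same held for 10.4% of all 16155 genes tested in both lines, and the named genes were in part chosen for their change in HCCLM3. More of the 45 named genes, 18 (40%), went the same way in both lines, against 14.8% of all genes tested in both. Of the 16 genes, IL6R and HNF4A were not called in HCCLM3, and SERPINF2, PLRG1, SAA1 and FCN1 were not called in LX2. On the deposited FPKM the HCCLM3 libraries of IL6R and TFPI overlapped between the groups, as did those of HNF4A on library totals. The difference between the lines was not tested for any of the 16 genes. Values are log2 fold changes of co-culture over alone.

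Of genes tied to the control of fibrinogen, CEBPD had 1.46 in HCCLM3 and -0.51 in LX2, STAT3 0.41 in HCCLM3 and -0.45 in LX2, and FOXA1 0.36 in HCCLM3 and -0.68 in LX2. HNF4A had -1.14 in HCCLM3 and 5.20 in LX2, and IL6R -0.36 in HCCLM3 and 1.91 in LX2. The HNF4A value in LX2 is set against a group with 0, 4 and 0 counts.

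Of acute phase and complement genes, CFB had 3.74 in HCCLM3 and -1.73 in LX2, and SAA1 7.14 in HCCLM3 and -2.19 in LX2. TNFSF10, a death ligand close to FGB in profile, had 3.74 in HCCLM3 and -1.92 in LX2. FCN1 had 8.65 in HCCLM3 and -1.26 in LX2. The HCCLM3 values of SAA1 and FCN1 are fitted against libraries with no count, so they depend on the prior count and are no bound.

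Of genes of clotting, fibrin breakdown and adhesion, PLAU had -0.92 in HCCLM3 and 1.62 in LX2, SERPINF2 0.74 in HCCLM3 and -0.58 in LX2, and PROS1 0.98 in HCCLM3 and -0.43 in LX2. TFPI had -0.38 in HCCLM3 and 0.39 in LX2, ITGAV 0.61 in HCCLM3 and -0.82 in LX2, and the collagen gene COL3A1 3.30 in HCCLM3 and -1.70 in LX2. PLRG1, next to FGB, had -0.26 in HCCLM3 and 0.09 in LX2.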

How the results depend on the processing

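FGA, FGB and FGG stayed higher in HCCLM3 with LX2 than in HCCLM3 alone under every alternative run. Their log2 fold changes ranged from 1.88 to 1.96, 3.76 to 3.803 and 4.10 to 4.68 when 1 library was left out, and moved to 2.10 for FGA and 3.96 for FGB with library totals, and to 3.45 for FGB and 3.15 for FGG with limma, whose pseudocount of 1 weighs on low levels. With GENCODE lengths FGB over FGA was 2.70 with LX2 and 0.745 alone, and FGG over FGB 0.238 with LX2. Of the neighbours, 2 were called, against 1 with DESeq2, counts divided by 4, library totals, limma or no filter, 0 with a replicate block and 0 to 1 with 1 library left out. Genes called in HCCLM3 numbered 3924 (1829 up, 2095 down), 1918 to 2928 with 1 library left out, 2977 up and 1039 down with library totals and 3104 up and 1106 down with limma. Called members of the 7 pathway lists numbered 38 in HCCLM3 and 21 to 29 with 1 library left out. The 38 include SAA1, C4A, C4B and FCN1, which passed the filter only through the co-cultured libraries. Same-numbered replicates did not deviate together (correlations 0.0171, 0.0452 and 0.0225 in HCCLM3 and -0.0390, 0.0115 and -0.0408 in LX2), so the numbers were not read as pairs, although every HCCLM3 library correlated best with its own number. With a replicate block 3315 genes were called in HCCLM3 and 4795 in LX2, against 6281 without it. Of 676 other values under an alternative, 565 stayed within their limits and 111 moved. The cause of these shifts was not tested. Depth limits FGG in HCCLM3 alone and all 3 genes in LX2.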
